A study of Mus musculus with 20 samples.

Results

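The potassium channel gene family was examined in whole mouse lung. Its members are the genes whose symbol starts with Kcn followed by a subfamily letter code and a number, other than Kcnk3 and Kcnj8. The table of 30691 named genes holds 86 of them, and 64 reached a value of 10 or more in at least 4 of 20 libraries and were tested. The tested members were selected on signal in these same libraries, so levels are given as a description and carry no test.

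Potassium channels let potassium leave or enter a cell along its gradient and so set the membrane potential. Voltage-gated channels (Kcna, Kcnb, Kcnc, Kcnd, Kcnh, Kcnq) open on depolarisation, calcium-activated channels (Kcnm, Kcnn) open when cytosolic calcium rises, and inward rectifiers (Kcnj) and two-pore-domain channels (Kcnk) hold the resting potential. In pulmonary artery smooth muscle, closing of potassium channels in low oxygen depolarises the cell and lets calcium enter through voltage-gated calcium channels. In airway and alveolar epithelium, potassium channels maintain the driving force for ion and fluid transport.

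RNA of whole lungs of C57BL/6 mice was sequenced in a design crossing genotype with oxygen. VIPKO hypoxia (5 libraries) are lungs of mice lacking the neuropeptide VIP kept in 10% oxygen for 4 weeks, and VIPKO normoxia (4 libraries) are lungs of such mice in 21% oxygen for the same time. WT hypoxia (5 libraries) and WT normoxia (6 libraries) are the wild-type lungs in 10% and in 21% oxygen for 4 weeks. All 20 are labelled as 1 batch. The genotype field calls the VIPKO samples a knockdown, while titles and design text call them a knockout, and no label states that libraries came from different animals, so p-values reflect only how far these libraries spread.

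Depth, estimated from the smallest step between low values, ran from 4.96 M reads in WT hypoxia 4 to 56.7 M in WT normoxia 4 over 19 libraries, and could not be settled for VIPKO hypoxia 2. Vip signal ran from 1.08 to 5.54 in 8 VIPKO libraries and from 0 to 93.0 in the WT libraries, of which only WT normoxia 5 and 2 passed 10. In the library labelled VIPKO hypoxia 4 it was 106 (about 101 reads), which goes against that label. For the Kcn members, that library's part is given below where leaving it out changes a call. Some libraries stood apart by markers of other tissue. The 6 thymus markers summed to 16866 in VIPKO hypoxia 3 and to between 165 and 381 in all other libraries. The 8 skeletal muscle markers summed to 33674 in WT hypoxia 5 and to between 35.6 and 1027 in all others. The 8 smooth muscle markers spanned 9236 to 18159 in VIPKO hypoxia, 7240 to 17883 in VIPKO normoxia, 3850 (library 1) to 22211 (library 4) in WT hypoxia, and 7255 to 20620 in WT normoxia. Whole lung is a mixture, and in such data fewer cells of a type and less RNA per cell cannot be told apart.

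The 64 genes differed widely in level. Per kilobase of annotated exon, the inward rectifier gene Kcnj15 (Kir4.2) was highest with a mean signal of 389 over all 20 libraries. The voltage-gated channel gene Kcna3 (Kv1.3, best known in lymphocytes) stood at 198 per kb. Kcne2, a single-pass auxiliary subunit that partners Kcnq1 in epithelia, stood at 158 per kb, and Kcnj13 (Kir7.1) and Kcnj2 (Kir2.1) stood at 154 and 149.8 per kb. Kcnq1 (Kv7.1) reached 125 per kb, the mechanosensitive two-pore channel gene Kcnk2 (TREK-1) 117.4 per kb and Kcnk6 (TWIK-2) 116.8 per kb. Of the 64, 30 lay below 10 per kb. The 10 highest held 60.9% of the family's summed per-kb signal.

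By subfamily, the 9 tested inward rectifiers (Kcnj) held 26.8% of the summed per-kb signal, the 7 two-pore-domain channels (Kcnk) 17.5%, the 5 Shaker channels (Kcna) 9.60%, the 4 Kcnq channels 7.30% and the 5 BK channel genes (Kcnm) 3.47%. The BK channel opens on calcium and depolarisation in smooth muscle, where its pore subunit Kcnma1 is joined by Kcnmb1. Kcnma1 stood at only 3.42 per kb over 16976 exon bases, and Kcnmb1 at 30.5 per kb over 4191 bases. Per-kb values rest on the annotated exon length, which for Kcna3 is 1902 bases, about its coding part alone.

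**Figure D1:**
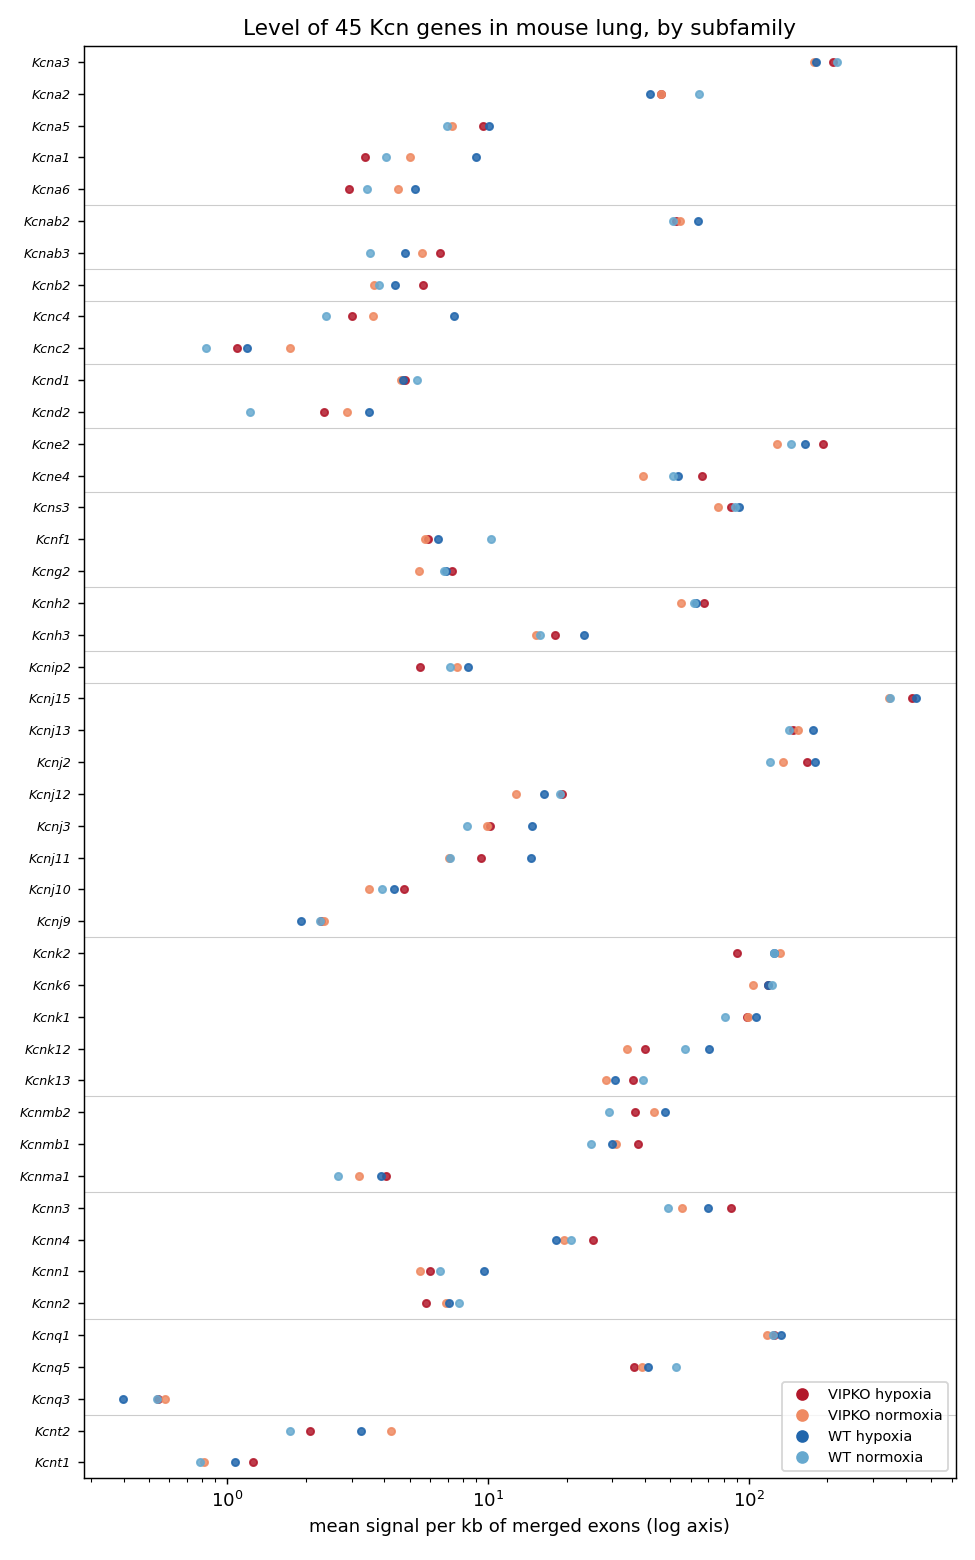
Mean signal per kb of merged exons (log axis) of the 45 tested Kcn genes that the text names, ordered by subfamily, with 1 point per group. Kcnj15 lies furthest right in all 4 groups and Kcnq3, at 0.512 per kb over all libraries, furthest left.

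Of the 64 genes, 46 were at 10 or more in all 20 libraries, and 63 had at least 1 library at 10 in every group. None had its libraries at 10 in 1 group only. Since 1 library per group was enough here, this does not show that no gene owes the floor to 1 group. Just inside the floor were Kcnq3 (10 or more in 4 libraries), Kcnc2 (6), and Kcnj9 and Kcnt1 (7 each). Just outside were Kcna7 (3 libraries) and Kcng3, Kcnip1 and Kcnk4 (2 each). Of the 22 genes under the floor, 13 never reached 10.

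Few members changed, and the count depended on the comparison. Changes are log2 fold changes ± SE on the log2(signal + 1) scale from limma, which understates change at low signal, with Benjamini-Hochberg adjustment over 21658 genes. A change is called at an adjusted p under 0.05. For VIPKO normoxia against WT normoxia 1 of the 64 rose and 0 fell, where 8.65% of all tested genes were called (4.69% higher and 3.96% lower). For WT hypoxia against WT normoxia 5 rose and 1 fell, where 14.7% of all genes were called (7.88% higher and 6.77% lower). For VIPKO hypoxia against VIPKO normoxia 1 rose and 0 fell, against 0.997% of all genes called (0.614% higher and 0.383% lower). For VIPKO hypoxia against WT hypoxia limma called 0 of the 64, against 1.62% of all genes (0.716% higher), and 7 had an unadjusted p under 0.05. No member was free of overlap between VIPKO hypoxia and WT hypoxia, against 3.76% of all genes. The interaction (the hypoxia effect in VIPKO minus that in WT) also gave 0, against 0.282% of all genes, with 7 at an unadjusted p under 0.05.

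The share of the 64 called in WT under hypoxia was 9.38%. The median change of the 64 was -0.03 for VIPKO against WT in normoxia, 0.07 for hypoxia in WT, 0.10 for hypoxia in VIPKO, 0.01 for VIPKO hypoxia against WT hypoxia and 0.10 for the interaction. Over all tested genes these medians were 0.01, -0.01, -0.01, 0.02 and 0.01. These comparisons share groups: WT normoxia serves both the normoxia comparison and hypoxia in WT, and VIPKO hypoxia serves both hypoxia in VIPKO and the hypoxia comparison. Without WT hypoxia 4, the shallowest library, 12 of the 64 were called for hypoxia in WT, against 21.7% of all genes. The count was 2 without WT hypoxia 1 (8.02% of all genes), 2 without WT hypoxia 3 (6.38%) and 3 without WT normoxia 6 (9.83%), so the share of all genes called moved the same way.

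**Figure D2:**
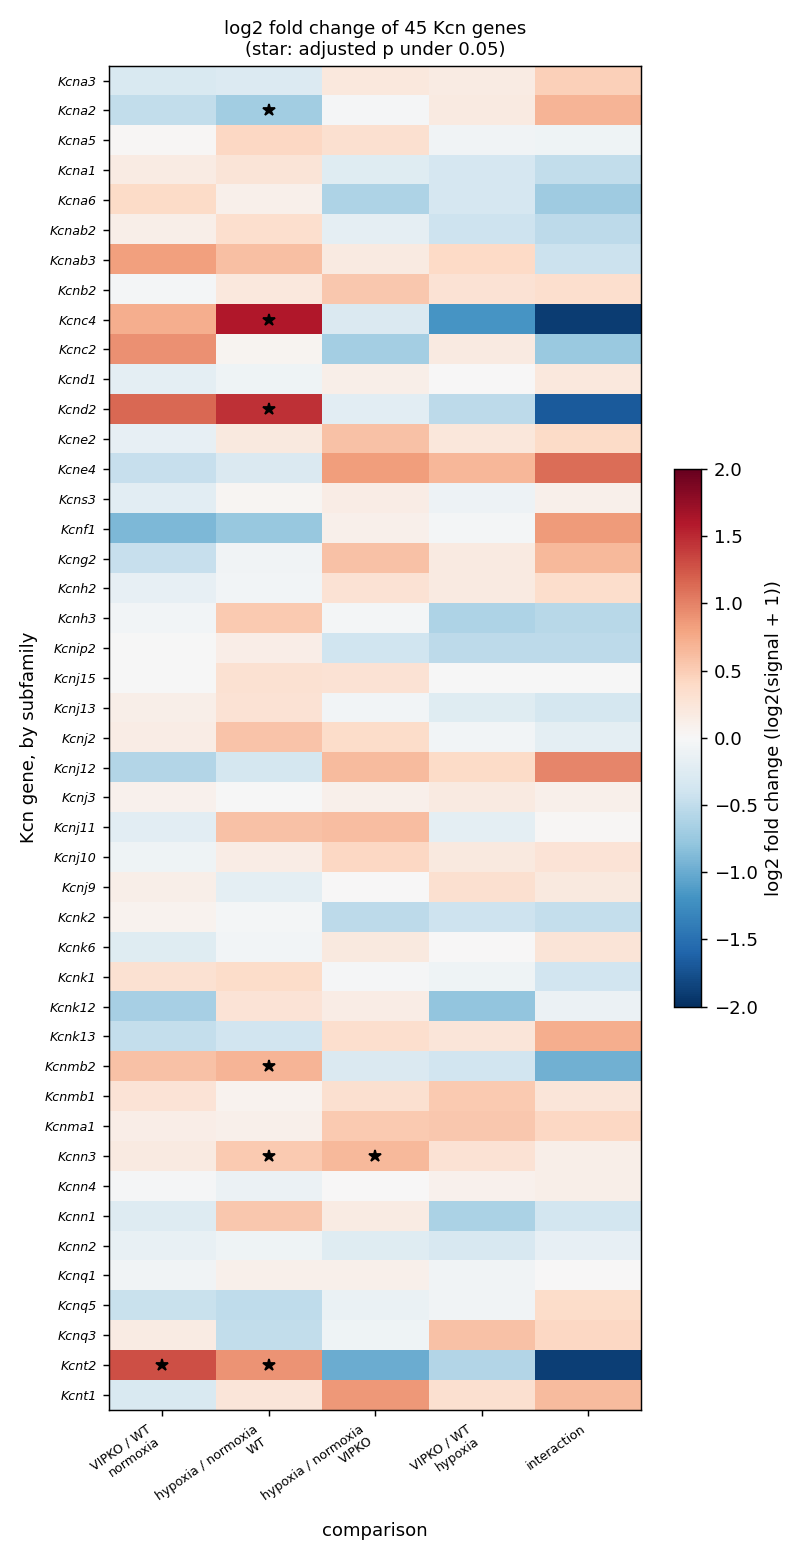
Heat map of the log2 fold change (log2(signal + 1) scale) of the same 45 Kcn genes, by subfamily, in 5 comparisons; a star marks an adjusted p under 0.05. Stars stand on 6 genes, 1 for VIPKO against WT in normoxia, 6 for hypoxia in WT and 1 for hypoxia in VIPKO.

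The 6 called genes were Kcnn3, Kcna2, Kcnmb2, Kcnt2, Kcnd2 and Kcnc4, and all 6 were called for hypoxia in WT, with Kcnt2 called also for VIPKO against WT in normoxia and Kcnn3 also for hypoxia in VIPKO. Promoter windows of 300 bases (250 before to 50 after the annotated start, RefSeq, GRCm38.p6) were read to see whether these genes share a core motif of hypoxia-inducible factor or of the cyclic AMP response element, the pathway downstream of VIP receptors. The hypoxia-inducible factor core was searched on both strands as ACGTG, and also with its first letter changed as GCGTG. The response element was searched on both strands as its core TGACG, which the full palindrome TGACGTCA contains. The windows of the 4 called genes with the highest signal are shown because hypoxia and VIP loss are the variables of the study. All 4 lie on the + strand, at chr3:89519914-89520213 for Kcnn3, chr3:107101317-107101616 for Kcna2, chr3:31902453-31902752 for Kcnmb2 and chr1:140245468-140245767 for Kcnt2. The windows follow RefSeq starts, while the gene coordinates given below are those of GENCODE. The 2 starts agree for Kcnn3 and differ for Kcna2, Kcnmb2 and Kcnt2. The whole Kcna2 window lies after its GENCODE gene start at 107101146. The GENCODE start of Kcnmb2, at 31902507, falls inside its window away from the RefSeq start. The whole Kcnt2 window lies before its GENCODE gene start at 140246158. Capitals mark the matches, and in Kcnmb2 the run CACGC is the second of the factor cores read on the other strand, as in Kcnt2 the run CGTCA is the response element core.
Kcnn3: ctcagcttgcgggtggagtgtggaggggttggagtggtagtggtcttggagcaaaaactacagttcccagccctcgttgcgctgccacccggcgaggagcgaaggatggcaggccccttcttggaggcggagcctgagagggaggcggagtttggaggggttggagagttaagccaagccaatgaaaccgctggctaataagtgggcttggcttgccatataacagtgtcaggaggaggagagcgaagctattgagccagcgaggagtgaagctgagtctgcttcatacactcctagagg
Kcna2: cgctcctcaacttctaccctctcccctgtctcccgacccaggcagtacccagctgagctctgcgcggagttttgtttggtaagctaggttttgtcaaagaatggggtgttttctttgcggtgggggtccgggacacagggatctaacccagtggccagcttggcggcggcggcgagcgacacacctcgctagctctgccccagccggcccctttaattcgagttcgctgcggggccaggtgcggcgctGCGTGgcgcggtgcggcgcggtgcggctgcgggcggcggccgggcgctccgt
Kcnmb2: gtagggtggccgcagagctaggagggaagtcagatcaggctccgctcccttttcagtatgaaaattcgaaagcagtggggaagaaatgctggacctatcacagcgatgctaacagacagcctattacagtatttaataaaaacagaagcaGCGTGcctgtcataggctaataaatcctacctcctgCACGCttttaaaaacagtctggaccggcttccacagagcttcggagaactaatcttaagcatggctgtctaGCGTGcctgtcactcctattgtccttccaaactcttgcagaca
Kcnt2: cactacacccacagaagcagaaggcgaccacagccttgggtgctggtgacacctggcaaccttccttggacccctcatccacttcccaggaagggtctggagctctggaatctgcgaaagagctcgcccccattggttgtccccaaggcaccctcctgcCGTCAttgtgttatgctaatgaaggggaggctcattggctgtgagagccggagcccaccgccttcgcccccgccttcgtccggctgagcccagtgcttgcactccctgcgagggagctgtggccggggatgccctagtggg
The Kcnn3 window held none of these letters, and neither did that of Kcnd2. Counting from the RefSeq start, with its first transcribed base as 1 and no position 0, Kcna2 held GCGTG at -2. Kcnmb2 held it at -100 and 8 and, on the opposite strand, at -64. Kcnt2 held TGACG on the opposite strand at -91 and Kcnc4 held it at -64. Among 32851 windows of all genes, 32.4% held GCGTG, 19.6% ACGTG, 20.8% TGACG and 1.79% TGACGTCA. Of 66 windows of 48 matched Kcn genes, 30.3% held GCGTG, 22.7% ACGTG and 15.2% TGACG, and 0 held TGACGTCA. A match is a run of letters and was not tested as a binding site.

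Kcnn3 encodes SK3, a small-conductance calcium-activated channel known from endothelium, where its opening hyperpolarises the cell and relaxes the vessel (chromosome 3, 89520164 to 89675132, mm10). It was higher under hypoxia in both genotypes. Signal was 952, 794, 946, 868 and 894 in VIPKO hypoxia libraries 1 to 5, against 532, 689, 433 and 660.1 in VIPKO normoxia. It was 872, 697, 703, 669 and 714 in WT hypoxia, against 435 to 698 with a median of 458 in WT normoxia. Every VIPKO hypoxia library lay above every VIPKO normoxia library, as for 5 of the 64 members in either direction (5.13% of all genes). In WT the groups overlapped, since WT normoxia 5, at 698, passed 2 of the 5 hypoxia libraries.

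Hypoxia raised Kcnn3 by 0.64 ± 0.15 in VIPKO lungs (adjusted p = 0.0358) and by 0.53 ± 0.13 in WT lungs (adjusted p = 0.0154). The WT call held without each library in turn (0.46 to 0.62). The VIPKO call was lost without any 1 of VIPKO hypoxia 1, 3 or 5, the library labelled VIPKO hypoxia 4, or VIPKO normoxia 1 or 3, with an adjusted p of 0.0637 to 0.175. The interaction was 0.12 ± 0.20 (adjusted p = 0.826). The other members of the subfamily, the SK genes Kcnn1 and Kcnn2 and the intermediate-conductance gene Kcnn4, were not called. Of 8 endothelial markers, 1 was called (lower) for hypoxia in VIPKO, where 5 of the 8 had a change above 0 and the median was 0.23. For hypoxia in WT 3 fell, none had a change above 0 and the median was -0.29. Of 6 B cell markers 5 fell for hypoxia in VIPKO. The part of these cells in the Kcnn3 result was not tested.

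**Figure D3:**
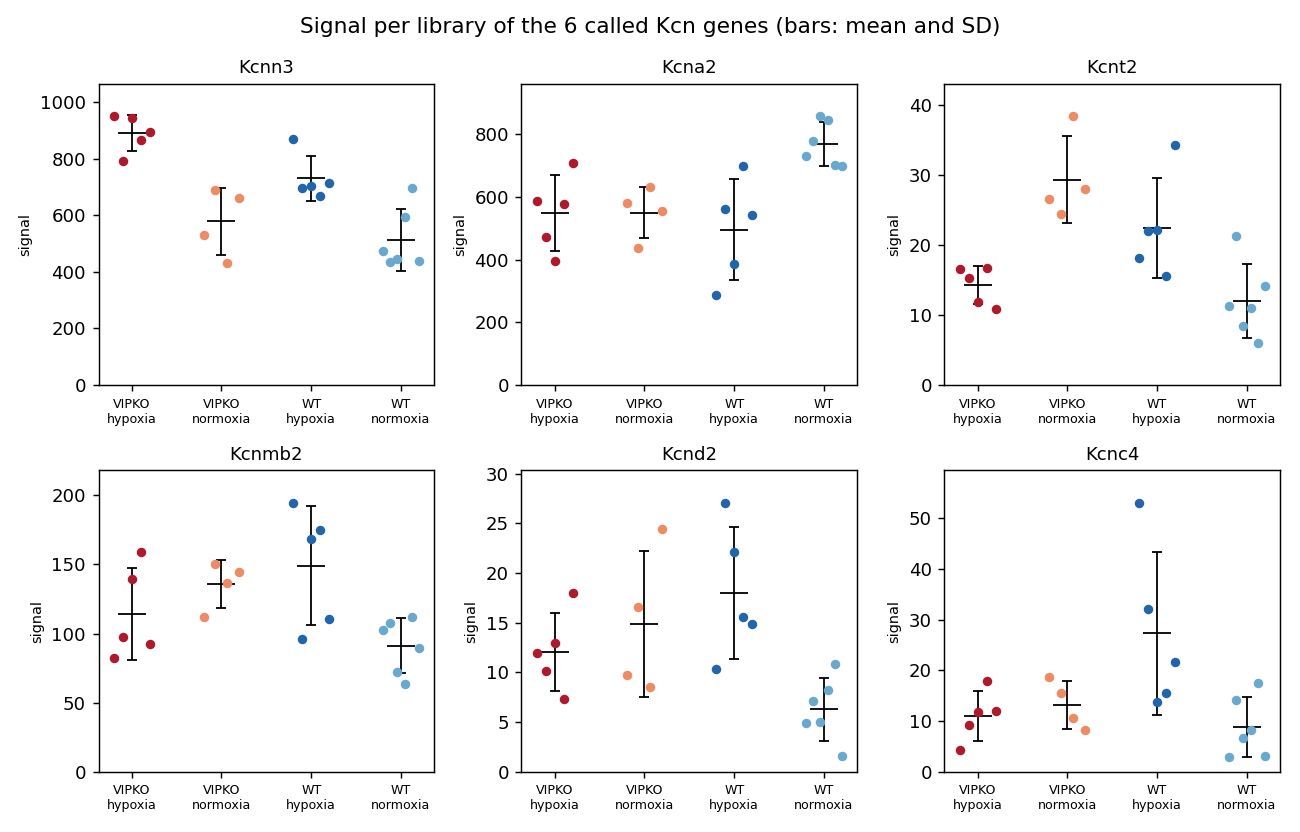
Signal in each library of the 6 called Kcn genes, 1 panel per gene, with points for libraries and bars for the group mean and SD. Kcnn3 is higher in both hypoxia groups, Kcna2 is highest in WT normoxia, and Kcnt2 is highest in VIPKO normoxia, where its 4 libraries lie between 24.4 and 38.4.

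Kcna2 encodes Kv1.2, a Shaker channel subunit that forms part of the voltage-gated current of pulmonary artery smooth muscle (chromosome 3, 107101146 to 107115005). It was lower in WT hypoxia than in WT normoxia. Signal was 289, 562, 386, 699.7 and 543 in WT hypoxia, against 700.4 to 859 with a median of 755 in WT normoxia. It was 587, 474, 395, 579 and 709.7 in VIPKO hypoxia, against 579.8, 437, 632 and 554 in VIPKO normoxia. No WT hypoxia library reached the lowest WT normoxia library, though WT hypoxia 4 missed it by less than 1 unit. It was the only 1 of the 64 members without overlap there (7.94% of all genes). Hypoxia lowered Kcna2 by -0.69 ± 0.18 in WT (adjusted p = 0.0177). Without WT hypoxia 1 the change was -0.52 (adjusted p = 0.0504) and without WT hypoxia 3 it was -0.62 (adjusted p = 0.0563). In VIPKO the hypoxia change was -0.02 ± 0.20, and the interaction of 0.67 ± 0.27 was not called (adjusted p = 0.262). In normoxia the VIPKO libraries also lay below all WT libraries, with a change of -0.49 ± 0.19 that was not called (adjusted p = 0.115).

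Among the other Shaker genes none was called. Kcna3 had 417, 323, 615, 301 and 336 in VIPKO hypoxia and 322, 421.4, 256 and 353 in VIPKO normoxia. It had 416, 315, 336, 315 and 335 in WT hypoxia and 349 to 496 in WT normoxia. The 615 belongs to VIPKO hypoxia 3, and without it the VIPKO hypoxia change in Kcna3 was 0.04 in place of 0.21. Kcna5 (Kv1.5), the oxygen-sensitive channel of pulmonary artery smooth muscle, was low, with means of 27.5 ± 15.7 in VIPKO hypoxia, 20.8 ± 10.3 in VIPKO normoxia, 28.7 ± 19.2 in WT hypoxia and 19.98 ± 8.25 in WT normoxia (SD, n = 5, 4, 5 and 6). Its hypoxia change was 0.32 ± 0.48 in VIPKO and 0.41 ± 0.43 in WT, and 0.09 in WT without WT hypoxia 4. Over the 5 Kcna genes the median change was -0.02 for hypoxia in VIPKO and 0.11 for hypoxia in WT.

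Kcns3 (Kv9.3), a silent subunit that modifies other voltage-gated channels, gave no call. It averaged 269.6 ± 46.8 in VIPKO hypoxia, 241 ± 19.5 in VIPKO normoxia, 291 ± 57.9 in WT hypoxia and 279 ± 22.4 in WT normoxia. Its hypoxia change was 0.14 ± 0.15 in VIPKO and 0.04 ± 0.14 in WT. Of the 9 genes listed as pulmonary artery potassium channels, 1 (Kcna2) fell for hypoxia in WT, against 6.77% of all genes. In the other 4 comparisons 0 were called. There 8.65% (VIPKO against WT in normoxia), 0.997% (hypoxia in VIPKO), 1.62% (VIPKO against WT in hypoxia) and 0.282% (interaction) of all genes were called.

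Kcnd2 and Kcnc4, genes of the fast-inactivating channels Kv4.2 and Kv3.4, rose under hypoxia in WT at low signal. Kcnd2 was 11.9, 10.1, 12.9, 7.34 and 17.98 in VIPKO hypoxia, against 9.75, 16.6, 8.54 and 24.4 in VIPKO normoxia. It was 10.3, 27.1, 22.1, 15.5 and 14.8 in WT hypoxia, against 1.57 to 10.8 with a median of 6.06 in WT normoxia. Only WT hypoxia 1 fell within the WT normoxia range. The rise of Kcnd2 in WT was 1.46 ± 0.39 (adjusted p = 0.0204), and without WT hypoxia 3 it was 1.37 (adjusted p = 0.0584). The WT hypoxia values rest on about 4 to 16 reads each.

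Kcnc4 was 4.33, 9.23, 11.9, 17.8 and 11.99 in VIPKO hypoxia, against 18.6, 15.5, 10.7 and 8.15 in VIPKO normoxia. It was 53.0, 32.1, 13.8, 15.5 and 21.7 in WT hypoxia, against 2.82 to 17.4 with a median of 7.49 in WT normoxia. WT hypoxia 1 was highest, and 2 of the 5 WT hypoxia libraries lay within the WT normoxia range. The rise of Kcnc4 in WT was 1.61 ± 0.46 (adjusted p = 0.0255). It was lost without WT hypoxia 1, WT normoxia 1 or WT normoxia 6 (adjusted p 0.0522 to 0.0752). In VIPKO the hypoxia change was -0.22 ± 0.43 for Kcnd2 and -0.29 ± 0.50 for Kcnc4, and neither interaction was called (-1.67 ± 0.58, adjusted p = 0.197, and -1.90 ± 0.68, adjusted p = 0.210).

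Kcnt2 encodes Slick, a sodium-activated potassium channel (chromosome 1, 140246158 to 140612067), and was the 1 member called for VIPKO normoxia against WT normoxia. Signal was 16.6, 15.3, 11.9, 16.8 and 10.8 in VIPKO hypoxia, against 26.6, 24.4, 38.4 and 27.9 in VIPKO normoxia. It was 18.2, 22.0, 22.1, 15.5 and 34.3 in WT hypoxia, against 6.00 to 21.2 with a median of 11.1 in WT normoxia. All VIPKO normoxia libraries lay above all WT normoxia libraries, as for 6 of the 64 members in either direction (9.87% of all genes), and above all VIPKO hypoxia libraries. Kcnt2 rose by 1.30 ± 0.31 in VIPKO normoxia against WT normoxia (adjusted p = 0.0167). Without VIPKO normoxia 3 its adjusted p was 0.0575 and without VIPKO normoxia 4 it was 0.0546.

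Hypoxia raised Kcnt2 by 0.90 ± 0.29 in WT (adjusted p = 0.0438), a call lost without any 1 of 13 libraries. These were WT hypoxia 1, 2, 3 and 5, WT normoxia 1, 3, 4, 5 and 6, VIPKO hypoxia 1, the library labelled VIPKO hypoxia 4, and VIPKO normoxia 1 and 2, with an adjusted p of 0.0501 to 0.117. In VIPKO hypoxia against VIPKO normoxia the change was -0.99 ± 0.32 (adjusted p = 0.175). The interaction of -1.88 ± 0.43 missed the threshold (adjusted p = 0.0680) and was called without VIPKO hypoxia 3, without WT hypoxia 4 or without WT normoxia 2. In the other 17 left-out fits it was not called, with an adjusted p of up to 0.161. With mitochondrial ribosomal RNA as a covariate, the normoxia change of Kcnt2 was 1.29 ± 0.59 (adjusted p = 0.505), and limma called 0 of all tested genes in that comparison. That RNA summed to 12034 to 27208 in VIPKO normoxia, against 97.7 to 2075 in WT normoxia. These ranges do not overlap, so that fit cannot tell this RNA from genotype, and nothing about Kcnt2 follows from the lost call. After quantile normalization 2 members were called, Kcnt2 higher and Kcnf1 lower.

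The BK channel genes showed 1 call. Kcnmb2, a subunit that inactivates the channel (chromosome 3, 31902507 to 32200180), was 81.99, 97.7, 139, 159 and 92.3 in VIPKO hypoxia, against 112, 151, 137 and 144 in VIPKO normoxia. It was 195, 96.4, 169, 175 and 111 in WT hypoxia, against 63.4 to 112 with a median of 96.2 in WT normoxia. WT hypoxia 1, 3 and 4 stood above the WT normoxia range and 2 and 5 within it. Kcnmb2 rose by 0.68 ± 0.21 under hypoxia in WT (adjusted p = 0.0384). The call was lost without WT hypoxia 1, 3 or 4 or WT normoxia 3, 4 or 6, with an adjusted p of 0.0606 to 0.104. The hypoxia change in VIPKO was -0.29 ± 0.24, and the interaction was -0.97 ± 0.32 (adjusted p = 0.174).

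The smooth muscle members of the channel were not called and varied with 1 library. Kcnma1 was 66.8, 62.9, 81.96, 38.5 and 94.7 in VIPKO hypoxia, against 78.4, 40.9, 82.2 and 16.3 in VIPKO normoxia. It was 21.2, 26.8, 28.1, 194 and 58.3 in WT hypoxia, against 21.4 to 72.4 with a median of 46.6 in WT normoxia. The 194 lies in WT hypoxia 4, the library with the highest smooth muscle marker sum, where Kcnmb1 was 268 against 61.7 to 126 in the other 4 WT hypoxia libraries. The hypoxia change in WT was 0.11 ± 0.50 for Kcnma1 and 0.08 ± 0.29 for Kcnmb1, and without that library -0.41 ± 0.42 and -0.25 ± 0.24 for the same genes. The smooth muscle part in these values was not tested. Kcne4, an auxiliary subunit chosen after its values were seen, was 362 in that library against 36.4 to 126 in the other 4.

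**Figure D4:**
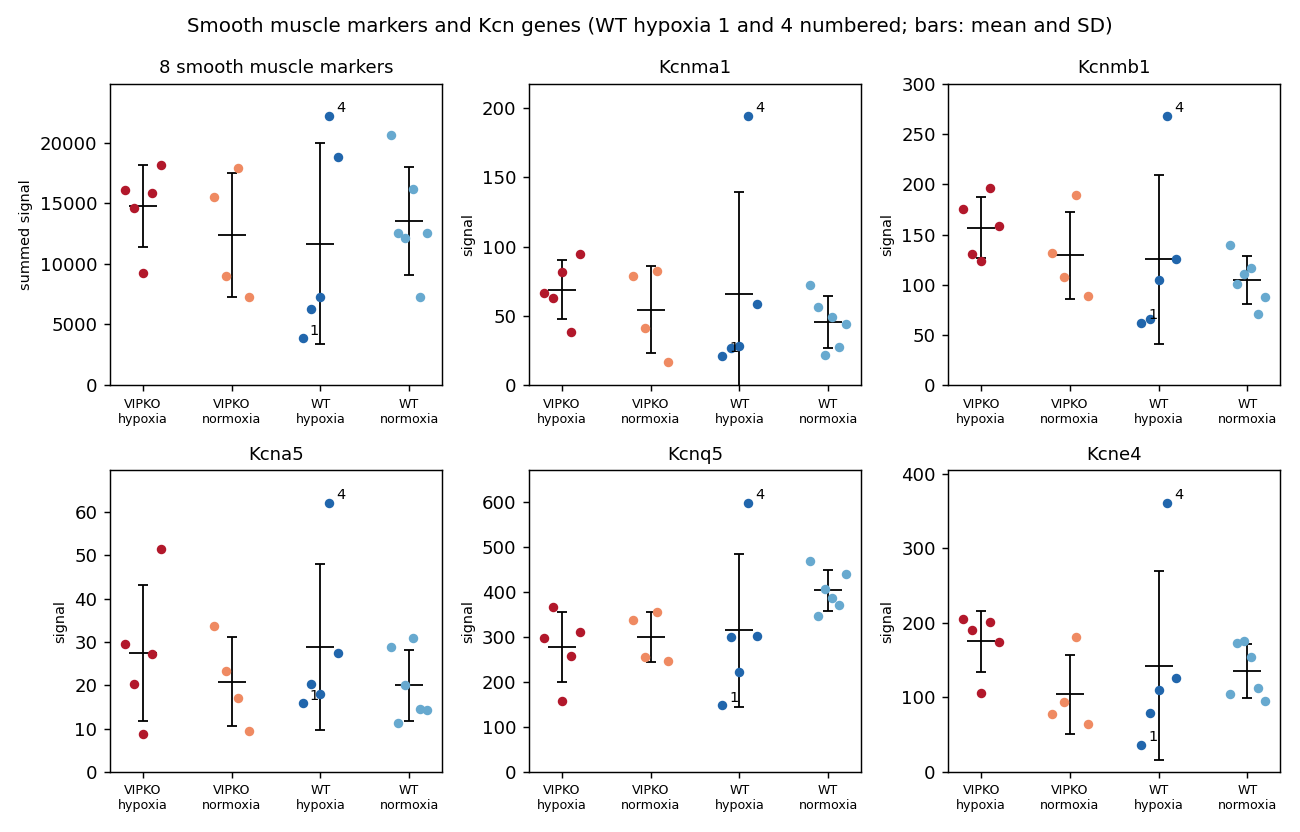
Summed signal of 8 smooth muscle markers and signal of Kcnma1, Kcnmb1, Kcna5, Kcnq5 and Kcne4 in each library, with group means and SD as bars, some reaching below 0 where they are cut at the axis. WT hypoxia 4 is the highest WT hypoxia library in every panel, and WT hypoxia 1, with a marker sum of 3850, is the lowest.

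No Kcnj gene was called in any comparison. Kcnj15 was 3140.1, 2422, 2674, 2637 and 2469 in VIPKO hypoxia, against 1881, 2449, 1971 and 2416 in VIPKO normoxia. It was 3097, 2927, 3379, 1555 and 2841 in WT hypoxia, against 1599 to 2818 with a median of 2169 in WT normoxia. The hypoxia change of Kcnj15 was 0.30 ± 0.18 in VIPKO and 0.30 ± 0.16 in WT, with groups that overlap in both. Without WT hypoxia 4, where it was 1555, the WT change was 0.49 ± 0.12 (adjusted p = 0.0105). Kcnj13 averaged 187 ± 27.4 in VIPKO hypoxia, 195 ± 24.9 in VIPKO normoxia, 223 ± 49.9 in WT hypoxia and 181 ± 31.3 in WT normoxia. Over the 9 Kcnj genes the median change was 0.37 for hypoxia in VIPKO, where 8 of 9 were above 0, and 0.15 for hypoxia in WT.

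No Kcnk gene was called either. Kcnk2 was 436, 414, 520.1, 422 and 441 in VIPKO hypoxia, against 648, 590.2, 536 and 822 in VIPKO normoxia, without overlap. It was 887, 581, 695, 353 and 567 in WT hypoxia, against 469 to 689 with a median of 654 in WT normoxia. The hypoxia change in VIPKO was -0.52 ± 0.19 (adjusted p = 0.227). For VIPKO hypoxia against WT hypoxia the change in Kcnk2 was -0.41 ± 0.18, and without WT hypoxia 4 it was -0.59 ± 0.15 and called (adjusted p = 0.0364). Kcnk6, whose loss in mice is known to raise pulmonary pressure, averaged 494 ± 47.9 in VIPKO hypoxia, 429 ± 39.3 in VIPKO normoxia, 492 ± 64.04 in WT hypoxia and 509 ± 33.1 in WT normoxia. Its highest VIPKO normoxia library, at 478.3, lay just under its lowest WT normoxia library, at 478.4, and the change of -0.25 ± 0.10 was not called (adjusted p = 0.126).

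None of the Kcnq genes was called. Kcnq1, the epithelial channel of the subfamily, had 467 to 552 in VIPKO hypoxia, 450.4 to 499.8 in VIPKO normoxia, 463 to 636 in WT hypoxia and 463 to 542 in WT normoxia, and its hypoxia change was 0.10 ± 0.09 in VIPKO and 0.10 ± 0.08 in WT. Kcnq5, a channel of vascular smooth muscle, had its highest group mean in WT normoxia. It was 297, 366, 158, 258 and 312 in VIPKO hypoxia, against 337, 256, 357 and 247 in VIPKO normoxia. It was 148, 299, 223, 599 and 303 in WT hypoxia, against 347 to 469 with a median of 397 in WT normoxia. WT hypoxia 4 lay above the WT normoxia range and the other 4 WT hypoxia libraries below it. The hypoxia change of Kcnq5 in WT was -0.51 ± 0.25 (adjusted p = 0.168). Without WT hypoxia 4 it was -0.78 ± 0.21 and called (adjusted p = 0.0161). The median change of the 4 Kcnq genes was -0.50 for hypoxia in WT and -0.01 for hypoxia in VIPKO.

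In the same fit without WT hypoxia 4, Kcnk1, Kcnj2 and Kcnj15 rose and Kcnk13 and Kcnf1 fell as well for hypoxia in WT, while Kcnmb2 was no longer called. Changes were 0.56 ± 0.15 for Kcnk1, 0.65 ± 0.23 for Kcnj2, -0.51 ± 0.17 for Kcnk13 and -0.90 ± 0.30 for Kcnf1, against 0.37 ± 0.18, 0.57 ± 0.22, -0.39 ± 0.17 and -0.76 ± 0.29 for these genes with it. Kcnk1, Kcnj2, Kcnk13 and Kcnf1 are named here after their values were seen.

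VIPKO hypoxia 3 and WT hypoxia 5 set the values of other genes, also named after their values were seen. In VIPKO hypoxia 3 the lymphocyte channel gene Kcnn4 was 368, against 66.0 to 71.9 in the other 4 VIPKO hypoxia libraries. Kcnh3, Kcnab2 and Kcnk12 were 256, 605 and 142 there, with the next highest library of that group at 87.4, 248 and 68.3 for these genes. Without it, VIPKO hypoxia was lower than WT hypoxia by -1.02 ± 0.20 for Kcnh3 (adjusted p = 0.00956), -0.71 ± 0.18 for Kcnab2 (adjusted p = 0.0315) and -1.02 ± 0.30 for Kcnk12 (adjusted p = 0.0495). With it, the changes were -0.62 ± 0.31, -0.41 ± 0.25 and -0.78 ± 0.31 and none was called. Over all genes 6.18% were called in that comparison without this library, against 1.62% with it. The change of Kcnn4 was 0.09 ± 0.39 with that library and -0.39 ± 0.28 without it.

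In WT hypoxia 5 the inward rectifier genes Kcnj11, Kcnj12 and Kcnj10 were 151, 94.8 and 44.5, with the next highest WT hypoxia library at 46.6, 38.9 and 19.4 for these genes. WT hypoxia 5 was the highest of all 20 libraries for 15 of the 73 Kcn genes that reached 10 anywhere. Without it the hypoxia change of Kcnj11 in WT was 0.10 ± 0.43 in place of 0.59 ± 0.48, and that of Kcnj12 was -0.66 ± 0.26 in place of -0.35 ± 0.30. Neither was called.

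**Figure D5:**
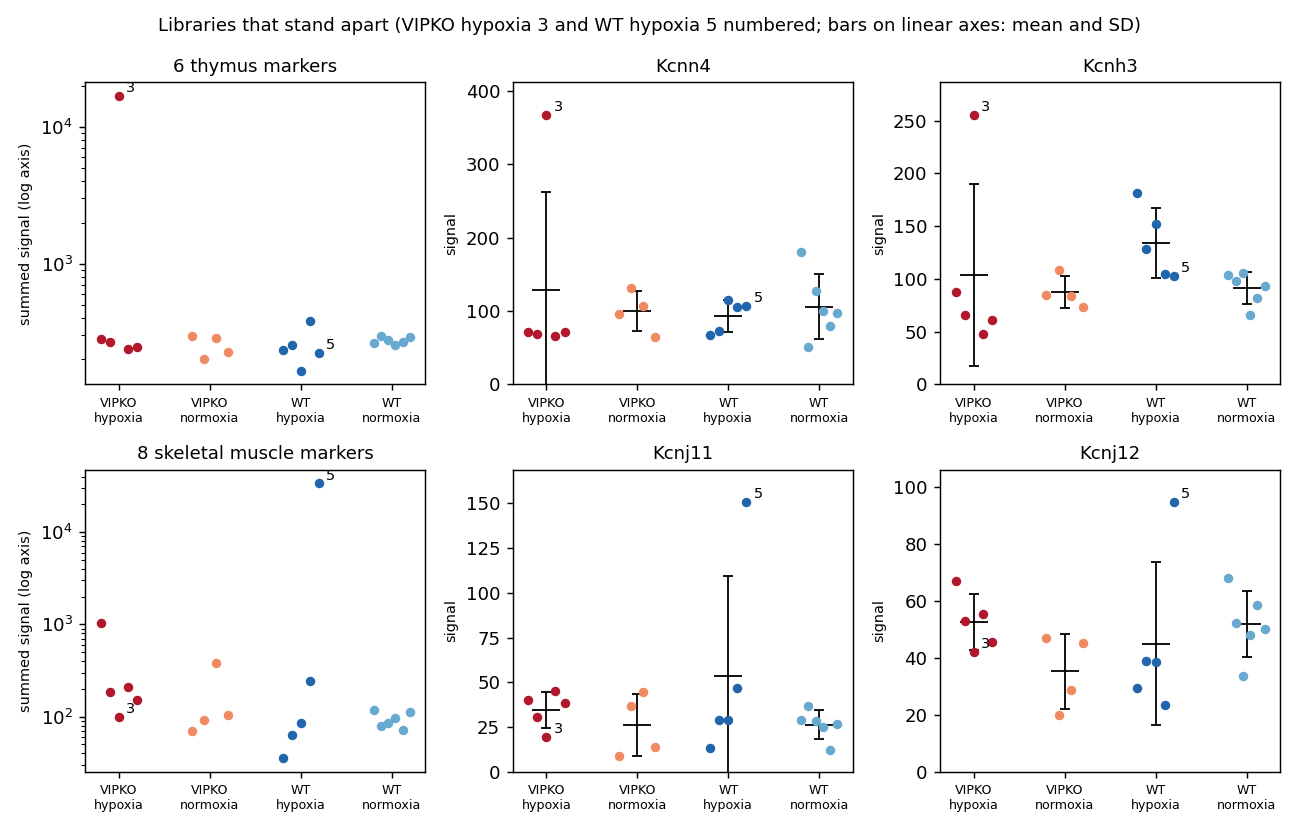
Summed thymus and skeletal muscle markers (log axes) and signal of Kcnn4, Kcnh3, Kcnj11 and Kcnj12 in each library, with group means and SD as bars on the linear axes, where bars are cut at 0. VIPKO hypoxia 3 is far above its group in the upper panels and WT hypoxia 5 in the lower ones.

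Genes that work with potassium channels changed in a few cases. The list of 30 also includes the channel genes Kcnk3 and Kcnj8, which the rule sets aside. Of these 30 genes 28 were tested, with all 20 libraries only, so how far their calls rest on single libraries was not tested. For VIPKO against WT in normoxia 1 rose and 1 fell, against 8.65% of all genes called. For hypoxia in WT 4 rose and 2 fell, against 14.7% of all genes. For hypoxia in VIPKO limma called 0 (and 0 had an unadjusted p under 0.05), against 0.997% of all genes. For VIPKO hypoxia against WT hypoxia 1 fell, against 1.62% of all genes (0.365% without the library labelled VIPKO hypoxia 4). Dpp6, the auxiliary subunit of Kv4 channels, rose for hypoxia in WT by 0.99 ± 0.23 (adjusted p = 0.0118), a comparison in which Kcnd2 also rose. Dpp6 had 191, 81.2, 92.7, 124 and 77.7 in WT hypoxia and 40.3 to 62.3 in WT normoxia. WT hypoxia 1, the highest of its group for Dpp6, was the lowest for Kcnd2 (10.3). Lrrc26, which lets BK channels open at rest, was 116, 116, 237, 197 and 132 in VIPKO hypoxia, 374, 288, 346, 295 and 219 in WT hypoxia and 127 to 212 in WT normoxia. Lrrc26 rose by 0.76 ± 0.20 for hypoxia in WT (adjusted p = 0.0199) and was lower by -0.97 ± 0.21 in VIPKO hypoxia than in WT hypoxia (adjusted p = 0.0270).

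Kcnrg, a regulator of Kv channel assembly, rose by 0.64 ± 0.15 for hypoxia in WT (adjusted p = 0.0111). Atp1b1, a subunit of the sodium pump, rose by 0.69 ± 0.19 (adjusted p = 0.0228) in that comparison. The L-type calcium channel gene Cacna1c fell by -0.74 ± 0.23 (adjusted p = 0.0384), and Slc12a4, a potassium-chloride cotransporter, fell by -0.22 ± 0.07 (adjusted p = 0.0405). In VIPKO normoxia against WT normoxia, Amigo1, a membrane protein that joins voltage-gated channels, fell by -0.48 ± 0.11 (adjusted p = 0.0122), and Atp1b3, another sodium pump subunit, rose by 0.30 ± 0.09 (adjusted p = 0.0368). The family genes set aside by the rule, Kcnk3 (TASK-1) and Kcnj8 (Kir6.1), were not called in any comparison.

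Cell type markers moved in the comparison that holds most of the Kcn calls. For hypoxia in WT, 5 of 6 alveolar type 2, 4 of 8 airway epithelium, 4 of 6 alveolar macrophage and 5 of 6 adipocyte markers rose, and 3 of 8 endothelial and 4 of 6 B cell markers fell. Of the neuroendocrine and nerve markers 2 of 5 rose, and 1 marker each rose among 6 Schwann cell, 6 alveolar type 1 and 8 fibroblast markers. None of the 8 smooth muscle or 8 pericyte markers was called. Of the smooth muscle markers 0 had a change above 0 (median -0.56), and of the pericyte markers 1 had (median -0.40). Summed alveolar type 2 markers were 290966 to 482835 in WT hypoxia and 168860 to 338227 in WT normoxia, and summed endothelial markers were 53331 to 82025 in WT hypoxia and 70886 to 94599 in WT normoxia. Adipocyte markers summed to 555 to 17426 in WT hypoxia and to 36.2 to 568 in WT normoxia, with Ucp1 at 0 in WT hypoxia 2, 3 and 4. For VIPKO against WT in normoxia 5 of 8 airway epithelium and 5 of 6 alveolar macrophage markers rose and 4 of 8 endothelial markers fell. There 2 of 6 adipocyte, 1 of 6 alveolar type 2 and 1 of 8 fibroblast markers rose as well. Over all genes 14.7% were called for hypoxia in WT and 8.65% for VIPKO against WT in normoxia. The part of these cell types in the Kcn changes was not tested.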

How the data were processed

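Libraries were made from whole lung RNA, and reads were processed in Partek against mm10, per the submitters' processing notes. For the aligner, counting strand, annotation and normalization method, nothing is stated in the sources used here. Values deposited by the authors are normalized counts of genes per the labels and were treated as a signal. The table has 30746 rows, of which 55 carry no gene name (0.00487% to 0.0187% of a library's signal) and were left out. Low values lay within 0.05 reads of a multiple of 1 step per library in 80.0% to 89.1% of cases, from which depth and reads were estimated. The step of VIPKO hypoxia 2 is ambiguous, so no count model was run. A count of 0 allows a signal of 1.03 to 11.7 (3 reads) over the other 19. Depths and this limit cover counting error only.

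The 21658 genes reaching 10 in 4 or more libraries were fitted as log2(signal + 1) with limma 3.58.1 in R 4.3.3, using 4 group means over 20 libraries and a variance trend, with 5 contrasts and Benjamini-Hochberg adjustment over all of them per contrast. Steps were tested on simulated data. Levels per kb use merged exons of GENCODE vM21 (GRCm38, mm10), and promoter windows come from RefSeq. Tables and figures used Python 3.11.15, pandas 2.3.3, numpy 2.4.6 and matplotlib 3.10.9.

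The members, gene lists and alternatives were chosen with earlier results of these data known. Named members are those called in any comparison and the 2 highest per kb in each of Kcna, Kcnj, Kcnk, Kcnm and Kcnq. To these come 9 pulmonary artery channels, giving 20 in all. Also named are the 8 called on the list of 30 genes that work with channels, which includes Kcnk3 and Kcnj8. Others are said to be named after their values were seen. Some members that these rules name are counted above but not reported here by name. Alternatives covered the pseudocount, filter, scaling, variance trend, library weights, groups fitted alone, a replicate block, a covariate and left-out libraries. All 20 libraries entered the main results.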

Additional observations from a re-analysis of the deposited data

Results flagged for a closer look

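In 26 of 244 sets of values (61 genes in 4 groups, 10.7%), the highest or lowest library lay far from the rest of its group by Dixon's test at the 95% level, which chance gives in about 1 in 20. VIPKO hypoxia 3, the library with thymus markers, held 7 of them. It was highest of its group for Kcnn4 (368), Kcnab2 (605), Kcnh2 (429), Kcnh3 (256), Kcnk12 (142) and Kcnk2 (520.1), and lowest for Kcnb2 (38.8).

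WT hypoxia 4, the shallowest library and the 1 with most smooth muscle marker signal, was highest of its group for Kcne4 (362), Kcnma1 (194), Kcna5 (62.2) and Kcnd1 (31.1) and lowest for Kcnk1 (136). WT hypoxia 5, the library with skeletal muscle markers, was highest for Kcnj11 (151), Kcnj12 (94.8), Kcna6 (94.8) and Kcnj10 (44.5).

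WT hypoxia 1 was highest of its group for Kcnn3 (872) and Kcna3 (416), and WT hypoxia 2 for Kcnt1 (27.1) and Kcnj9 (15.2). VIPKO normoxia 3 was highest for Kcna1 (57.6) and lowest for Kcnab3 (11.7). The library labelled VIPKO hypoxia 4 was highest for Kcnj13 (235). WT normoxia 2 was highest for Kcnj3 (90.6) and Kcng2 (32.6), and WT normoxia 3 was lowest for Kcnip2 (18.5).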

How the results depend on the processing

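The number of Kcn genes called, out of 64, is given first for VIPKO against WT in normoxia, then for hypoxia in WT, hypoxia in VIPKO, VIPKO against WT in hypoxia and the interaction. It was 1, 6, 1, 0 and 0 in the results above. Brackets below hold the share of all genes called, in the same order. With library weights estimated by limma the count was 11, 12, 3, 3 and 6 (25.2%, 30.4%, 3.31%, 8.89% and 10.3%). Without VIPKO normoxia 2 and 3 and VIPKO hypoxia 2 it was 0, 4, 0, 0 and 0 (0%, 13.4%, 0.208%, 0.125% and 0%). Without WT hypoxia 5 and VIPKO hypoxia 3 it was 1, 7, 0, 2 and 0 (10.3%, 13.9%, 0.79%, 4.92% and 1.35%). With mitochondrial ribosomal RNA as a covariate it was 0, 5, 1, 0 and 0 (0%, 7.11%, 0.813%, 0.115% and 0%). With the compared groups fitted alone it was 3, 4, 0 and 0 in the first 4 comparisons (10.2%, 14.4%, 0.619% and 0.0416%). Quantile normalization gave 2 for the first (8.89%) and 1 for the interaction (0.268%). The fit without a variance trend gave 0 for hypoxia in VIPKO (0.725%). Leaving out each library in turn gave 0 to 2, 2 to 12, 0 to 1, 0 to 3 and 0 to 1. Shares of all genes called ran from 1.66% to 11.8%, 6.38% to 21.7%, 0.406% to 1.81%, 0.162% to 6.18% and 0.0185% to 2.5%. In each of these the cause was not tested. Other settings kept each count within 1.5 times, and no call changed sign.

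With a replicate block the count was 0, 2, 0, 0 and 0, with Kcnn3 and Kcna2 called for hypoxia in WT. Over all genes the shares called with that block were 3.15%, 7.13%, 0.416%, 0.688% and 0%. Of the same-number pairs of libraries, 7 of 27 correlated above 0.1 (median -0.0178, highest 0.41), and 7 of 20 libraries correlated best with their own number. No chance level was computed for these values, so they cannot settle whether replicate numbers pair the libraries.

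Over all genes, called counts ran over these settings from 0 to 5448 for VIPKO against WT in normoxia (1873 above), 1382 to 6590 for hypoxia in WT (3173), 45 to 717 for hypoxia in VIPKO (216), 9 to 1926 for VIPKO against WT in hypoxia (350) and 0 to 2228 for the interaction (61). Among uncalled changes of genes that stood apart in a library, direction turned as follows. Without WT hypoxia 4 it turned for Kcnma1, Kcnmb1 and Kcnk2 (hypoxia in WT), for Kcna5, Kcnq5 and Kcnf1 (VIPKO against WT in hypoxia) and for Kcna5 (interaction). Without WT hypoxia 5 it turned for Kcna6, Kcna1 and Kcnj10 (hypoxia in WT), for Kcnj11, Kcna6 and Kcna1 (VIPKO against WT in hypoxia) and for Kcna1 (interaction). Without VIPKO hypoxia 3 it turned for Kcnn4 and Kcnk12 (hypoxia in VIPKO) and for Kcnn4 (VIPKO against WT in hypoxia and interaction). Kcnt2, Kcnd2 and Kcnc4 rest on few reads in the shallow libraries, and depth limits all members under a signal of about 10.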

Other observations

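Some Kcn genes under the floor reached it in single libraries. In WT hypoxia 5, where skeletal muscle markers summed to 33674, Kcna7, a Shaker channel gene known from muscle, was 32.0, Kcnv1 was 25.1 and Kcng4 was 19.4. Kcna7 reached 10 in 3 libraries in all. It was 16.8 in VIPKO hypoxia 5 and 11.7 in WT hypoxia 4. These values belong to no comparison.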
